A study of Mus musculus with 7 samples.

Results

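The 37 genes described here are those of a written list of autophagy and mitophagy genes, taken by symbol with no measured value in the rule, though the list was drawn up with earlier results of these data known, and all 37 had a row among the 55367 gene symbols of the tables. They were grouped by role into the initiation kinase complex with 5 genes, the class III PI3-kinase complexes and their regulators with 6, membrane supply and phosphoinositide effectors with 5, the conjugation enzymes with 7, the ATG4 proteases with 4, the ATG8 family with 5, and receptors and mitophagy genes with 5.

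Autophagy encloses cytoplasm in a double membrane that fuses with the lysosome. The ULK kinase complex starts it, the class III PI3-kinase makes the lipid mark on which the membrane grows, ubiquitin-like enzymes attach ATG8 proteins to that membrane, and receptors tie the cargo to ATG8. Maturing red cells use this machinery to remove their mitochondria, with the receptor NIX, the product of Bnip3l, needed for that removal in mouse, and GATA1 and FOXO3 are known activators of autophagy genes in erythroid cells.

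Messenger RNA had been sequenced from G1E-ER4 cells, a mouse erythroid progenitor line, to ask how restricting zinc affects gene expression during differentiation. G1E-ER4 is a clone that lacks its own Gata1 and carries GATA1 fused to the estrogen receptor, so that β-estradiol starts maturation, and it is a cultured line, not marrow. The zinc-restricted group had 3 libraries, from cells given 100 nM β-estradiol together with 50 µM DTPA, a metal chelator, and harvested at 24 h. The control group had 3 libraries at 24 h of 100 nM β-estradiol without DTPA, and the undifferentiated group had 1 library at 0 h with neither agent. All 3 groups shared the line, serum, erythropoietin and medium conditioned by cells that make Kit ligand. DTPA binds metals other than zinc as well, and none of the libraries described here is labelled as having zinc added back.

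Levels are in TPM, in which the reads of each gene are corrected for its length and scaled to a total shared by all libraries. The estimated depth was 19.79 to 21.2 M reads in the DTPA libraries, 17.68 to 18.6 M in the control libraries and 17.59 M at 0 h. Across genes, the correlation of log2 values was 0.988 to 0.99 between libraries of the same 24 h group, 0.947 to 0.951 between DTPA and control libraries, 0.761 to 0.767 between DTPA libraries and 0 h, and 0.813 to 0.816 between control libraries and 0 h. The 11 erythroid markers, globins included, were all detected and summed to 64200 to 82300 TPM in the DTPA libraries, 55300 to 59400 TPM in the control libraries and 13200 TPM at 0 h. Under DTPA these markers moved in both directions. Gata1 had 1176.76 to 1410.0 TPM in the DTPA libraries, 3075.16 to 3260.94 TPM in the control libraries and 2968.74 TPM at 0 h. Alas2 went the other way, at 2510.31 to 2585.49, 1891.58 to 2007.19 and 34.15 TPM in the same groups. The clone lacks its own Gata1, and neither the source of the Gata1 reads nor their part in the results was tested. The 10 megakaryocyte markers summed to 42.4 to 51.5 TPM in the DTPA libraries, 9.08 to 12.7 TPM in the control libraries and 39.5 TPM at 0 h, with Ppbp, Gp1bb, Gp6 and Vwf listed at 0 in all 7 libraries. Markers of macrophage and myeloid, mast and lymphoid cells each summed to at most 3.14 TPM in any DTPA library, 3.19 TPM in any control library and 8.43 TPM at 0 h. These sums moved with the comparisons below, and their part in the results was not tested.

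With DTPA, the largest log2 rises among the tested genes were in Atg2a, Ulk1, Atg14 and Pink1, and the largest falls in Atg4b, Uvrag, Atg3 and Atg4d. Of the 37 genes, 35 passed the filter of 1 TPM in at least 3 of the 6 libraries, 10 were called higher and 8 lower at a limma adjusted p under 0.05, and 17 were not called. The called share was 51.4%, beside 58.1% of all 11147 genes tested. By direction the shares were 28.6% higher and 22.9% lower, beside 21.7% higher and 36.4% lower over all genes. Only 4 of the called genes differed by at least 0.5 on the log2 scale, which 28.4% of all genes tested did. The DTPA and control libraries did not overlap in 21 of the 35 genes, or 60%, beside 65% of all genes: DTPA was above in 10, beside 24.7% of all genes, and below in 11, beside 40.3%. The median log2 fold change over the 35 was 0.02, beside -0.09 over all genes. With median-of-ratios scaling, which moved the all-gene median by 0.09, the calls were 14 higher and 4 lower, and with quantile normalization, which moved it by 0.1, they were 18 higher and 5 lower. In bulk RNA, fewer cells of a type and less RNA per cell cannot be told apart.

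During differentiation the rises were led by Map1lc3a, Gabarap, Wipi1 and Atg9a. In the control libraries against 0 h, 17 of the 35 tested genes were called higher, at a limma adjusted p under 0.05 and a log2 fold change of at least 1, which is 48.6% beside 15.1% of all 11906 genes tested. None of the 35 was called lower, beside 24.3% of all genes (39.4% of all genes were called in either direction), and 0 were lower by that fold at an unadjusted limma p under 0.05. Without the minimum fold, 26 were higher and 4 lower, beside 30.9% and 43.6% of all genes, and these 4, Atg5, Atg16l1, Pik3c3 and Fundc1, all lay above every control library at 0 h. The median log2 fold change over the 35 was 0.99, beside -0.22 over all genes. Median-of-ratios scaling moved the all-gene median by 0.15 and quantile normalization by 0.2, and the members' median stood above it by 1.2 on TPM, 1.22 with the median-of-ratios scaling and 1.08 with quantile normalization. The 0 h library was below all 3 control libraries in 27 of the 35 genes and above all 3 in 8. The 0 h group was a single library, and the spread in this comparison comes from the 24 h groups. The control libraries enter both comparisons, so the 2 fold changes of a gene are not independent.

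**Figure D1:**
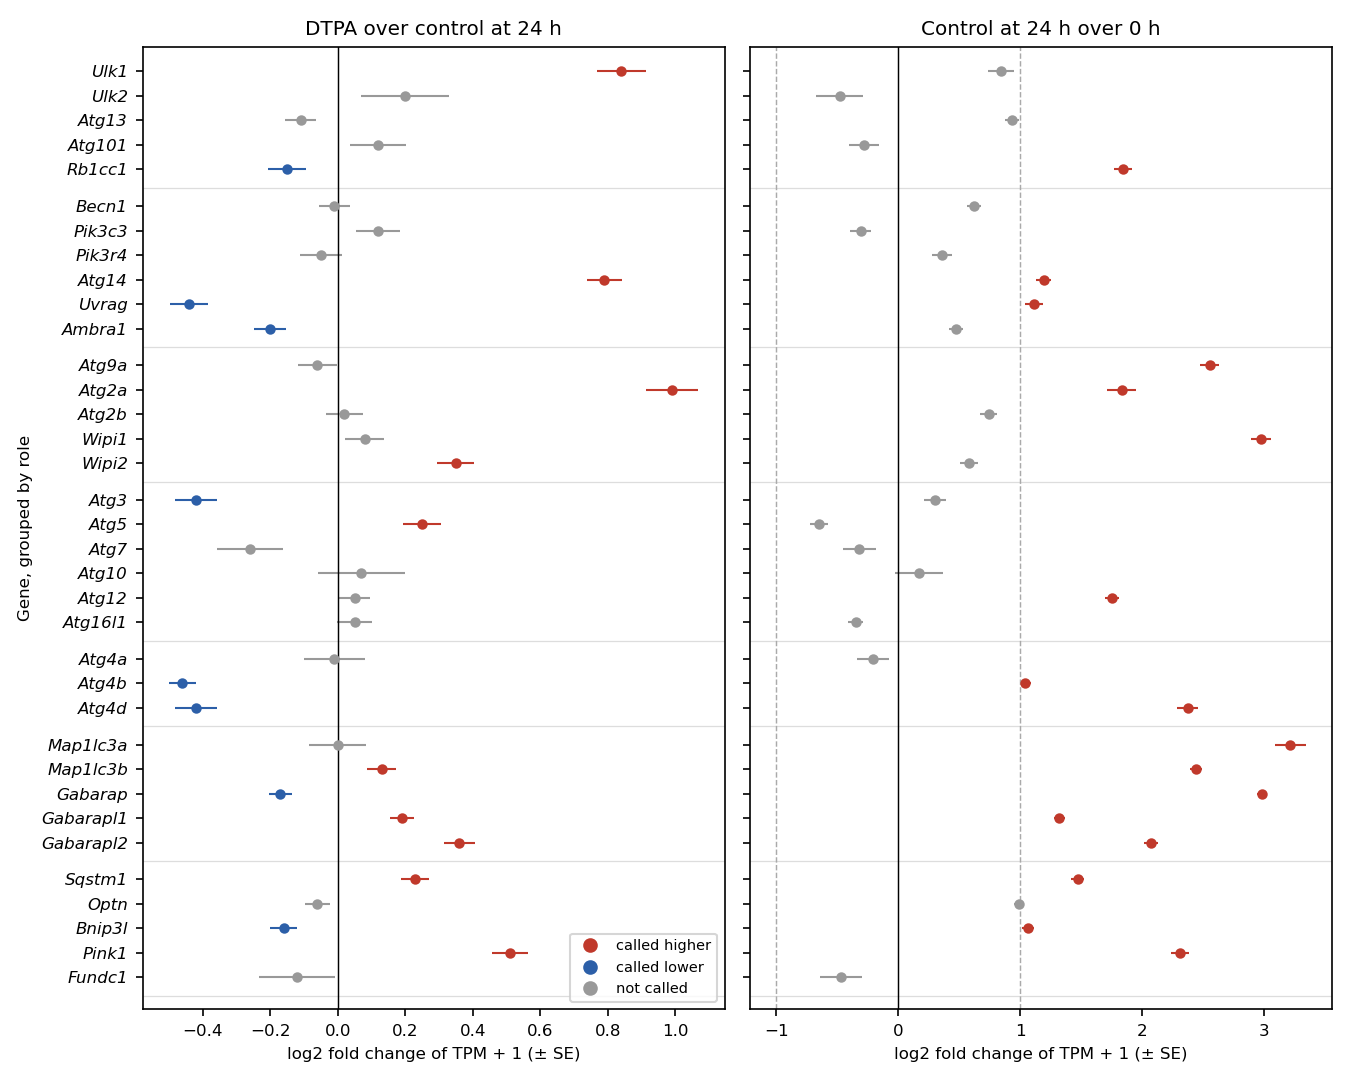
log2 fold change of TPM + 1 with its standard error for the 35 tested genes, grouped by role, for DTPA over control at 24 h (left, 3 libraries each) and control at 24 h over 0 h (right, 3 libraries and 1 library); red marks genes called higher, blue genes called lower and grey genes not called, and the dashed lines mark a log2 fold change of 1 in size. On the left the calls are 10 higher and 8 lower, from 0.99 for Atg2a to -0.46 for Atg4b, and on the right 17 are higher, up to 3.21 for Map1lc3a.

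The 250 bases before the RefSeq start site of these 8 genes with the largest rises and falls under DTPA are shown because they are where regulators of transcription could bind. They are read 5′ to 3′ on the gene's strand from RefSeq on GRCm38.p6. Capitals mark matches on either strand to CACGTG, the E-box that TFE3-family factors recognise, to AGATAA or TGATAA, the GATA site, and to TGCACNC or TGCGCNC, the core of the metal response element that MTF1 recognises.
Atg2a, chr19:6241418-6241667, plus strand: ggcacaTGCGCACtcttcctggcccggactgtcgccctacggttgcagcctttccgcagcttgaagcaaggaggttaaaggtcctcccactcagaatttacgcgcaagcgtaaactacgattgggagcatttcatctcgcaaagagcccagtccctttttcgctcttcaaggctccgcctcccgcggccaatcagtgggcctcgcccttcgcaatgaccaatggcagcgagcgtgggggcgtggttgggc
Ulk1, chr5:110810082-110810331, minus strand: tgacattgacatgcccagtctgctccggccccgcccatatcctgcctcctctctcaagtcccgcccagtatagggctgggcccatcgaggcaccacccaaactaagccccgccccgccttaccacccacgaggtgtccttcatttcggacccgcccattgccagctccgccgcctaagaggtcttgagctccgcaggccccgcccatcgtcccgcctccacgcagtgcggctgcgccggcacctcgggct
Atg14, chr14:47568435-47568684, minus strand: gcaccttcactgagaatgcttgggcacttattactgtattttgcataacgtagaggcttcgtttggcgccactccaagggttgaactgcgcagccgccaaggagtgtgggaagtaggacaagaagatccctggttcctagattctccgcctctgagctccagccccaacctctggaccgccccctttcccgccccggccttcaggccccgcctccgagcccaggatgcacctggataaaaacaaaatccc
Pink1, chr4:138326297-138326546, minus strand: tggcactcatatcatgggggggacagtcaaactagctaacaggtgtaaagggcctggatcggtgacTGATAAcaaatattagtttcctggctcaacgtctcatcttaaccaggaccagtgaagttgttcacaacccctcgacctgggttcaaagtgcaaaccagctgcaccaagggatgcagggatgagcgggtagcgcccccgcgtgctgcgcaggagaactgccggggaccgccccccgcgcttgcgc
Atg4b, chr1:93754655-93754904, plus strand: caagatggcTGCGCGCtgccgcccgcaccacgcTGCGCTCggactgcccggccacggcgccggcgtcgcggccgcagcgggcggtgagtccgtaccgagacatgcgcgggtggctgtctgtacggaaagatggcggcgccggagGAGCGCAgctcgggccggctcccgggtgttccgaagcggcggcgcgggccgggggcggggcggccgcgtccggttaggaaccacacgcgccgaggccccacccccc
Uvrag, chr7:99141145-99141394, minus strand: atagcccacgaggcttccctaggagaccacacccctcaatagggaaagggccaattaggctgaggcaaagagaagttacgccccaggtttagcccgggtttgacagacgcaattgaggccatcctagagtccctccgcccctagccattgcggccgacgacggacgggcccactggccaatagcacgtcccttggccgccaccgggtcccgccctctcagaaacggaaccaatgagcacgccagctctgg
Atg3, chr16:45158579-45158828, plus strand: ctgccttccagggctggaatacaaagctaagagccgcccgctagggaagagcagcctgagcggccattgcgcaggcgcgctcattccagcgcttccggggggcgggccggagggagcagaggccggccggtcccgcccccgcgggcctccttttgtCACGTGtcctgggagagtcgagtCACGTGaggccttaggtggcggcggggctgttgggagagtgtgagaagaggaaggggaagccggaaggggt
Atg4d, chr9:21265035-21265284, plus strand: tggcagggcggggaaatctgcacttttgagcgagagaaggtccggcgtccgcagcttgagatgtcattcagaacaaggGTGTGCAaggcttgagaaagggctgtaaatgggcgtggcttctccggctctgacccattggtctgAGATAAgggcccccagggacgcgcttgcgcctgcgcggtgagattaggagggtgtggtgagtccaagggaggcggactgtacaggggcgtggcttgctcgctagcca
Atg3 held 2 E-boxes, which begin 94 and 71 bases before the start. Pink1 held a GATA site 184 bases before its start and Atg4d 1 at 107 bases. The metal response element core was matched at 244 bases before the start of Atg2a, at 172 bases in Atg4d, and at 241, 217 and 106 bases in Atg4b. None of the letters searched stood in these windows of Ulk1, Atg14 or Uvrag. The 250-base window of 30 of the 37 genes was searched. The E-box was in 10% of them and in 6.86% of 27025 genes, the GATA site in 10% against 18.8%, and the metal response element core in 30% against 23.8%. The E-box and the TGCACNC form of the metal response element core both hold the letters CAC, and at the positions given no matches overlapped in these 8 windows. A match of letters is a description and shows no binding.

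**Figure D2:**
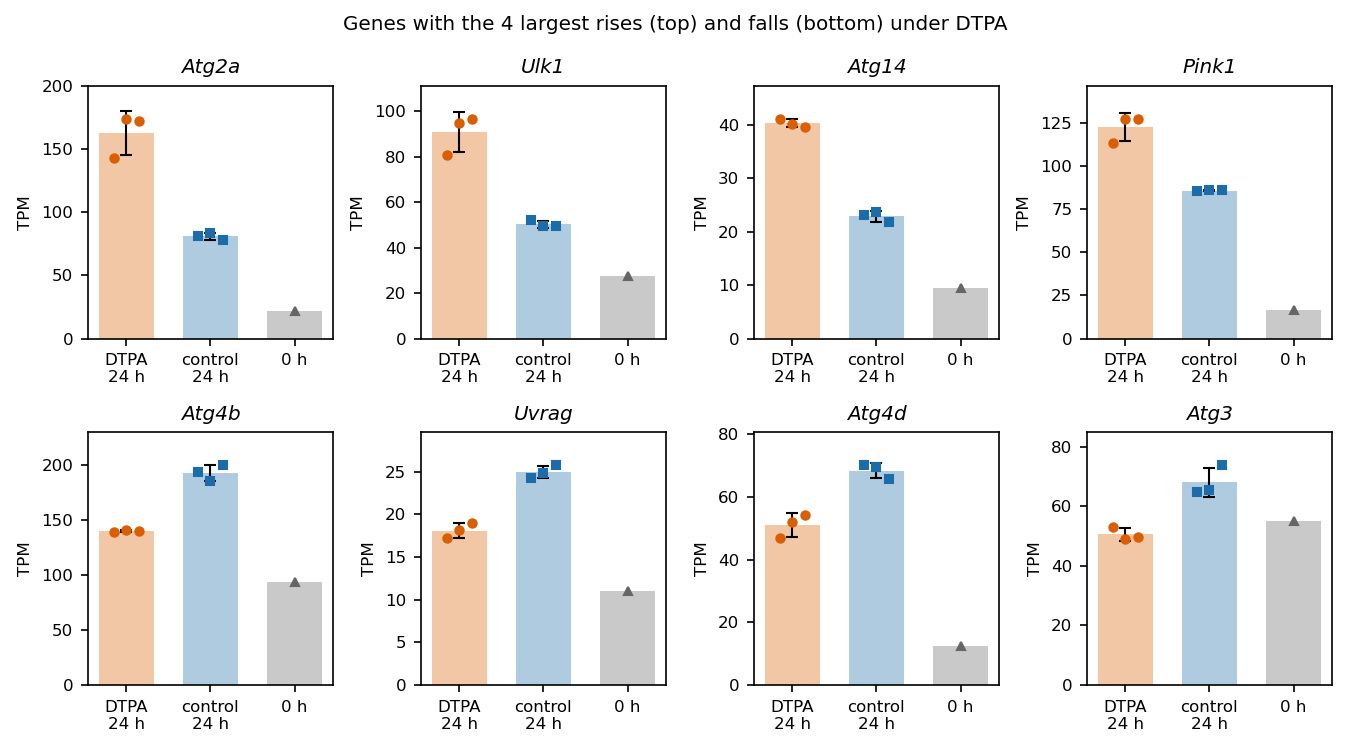
TPM in each library (points) with the mean (bars) and SD (error bars, n = 3) for the DTPA and control groups and the single 0 h library, for Atg2a, Ulk1, Atg14 and Pink1 (top) and Atg4b, Uvrag, Atg4d and Atg3 (bottom); each panel has its own axis from 0. In all 8 panels the DTPA and control points do not overlap, and Atg3 is the panel in which the 0 h point, at 55.04 TPM, lies above all DTPA points.

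The gene of the kinase at the head of the pathway rose with DTPA, and a slight fall in that of its scaffold was lost in most alternative settings. Ulk1 encodes the serine/threonine kinase that starts autophagosome formation. It had 80.67, 94.83 and 96.56 TPM in the DTPA libraries, 51.93, 49.28 and 49.28 TPM in the control libraries and 27.59 TPM at 0 h. Every DTPA library was above every control library, and the 0 h library was lowest. The log2 fold change for DTPA over control was 0.84 (SE 0.0723, limma adjusted p = 4.57e-05), and that for control over 0 h was also 0.84, below the minimum fold. Ulk2, its close relative, had 7.54 to 10.39 TPM in the DTPA libraries, 6.63 to 8.51 TPM in the control libraries and 10.79 TPM at 0 h, and was not called in either comparison. As a share of the summed level of both kinases, Ulk1 made up 91.2% ± 0.777 in the DTPA libraries, 87.0% ± 1.11 in the control libraries (SD, n = 3 each) and 71.9% at 0 h.

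Rb1cc1 encodes FIP200, the large scaffold of the ULK complex. It had 49.21, 45.97 and 46.27 TPM in the DTPA libraries, 50.81, 50.72 and 56.1 TPM in the control libraries and 13.89 TPM at 0 h. The DTPA libraries lay just below the control libraries, and 0 h far below both. The DTPA difference of -0.15 (SE 0.0562, limma adjusted p = 0.0495) had the highest adjusted p of the 18 calls, and it held in 3 of 16 alternatives, with a value of 0.003 under quantile normalization. The rise over 0 h was 1.84 (SE 0.0764, limma adjusted p = 5.88e-06). Atg13 and Atg101, the binding partners of the complex, were not called in either comparison. Atg13 had 48.91 to 49.52 TPM in the DTPA libraries, 50.54 to 55.03 TPM in the control libraries and 27.43 TPM at 0 h, and Atg101 had 33.51 to 40.18, 30.74 to 35.64 and 41.0 TPM in the same groups.

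In the class III PI3-kinase complexes, the subunits that define the alternative complexes moved in opposite directions under DTPA. Atg14 directs the complex to the site where the autophagosome forms. It had 41.06, 40.19 and 39.64 TPM in the DTPA libraries, 23.14, 23.72 and 21.73 TPM in the control libraries and 9.47 TPM at 0 h. The 3 groups did not overlap, and DTPA was highest. The log2 fold change was 0.79 for DTPA over control (SE 0.0511, limma adjusted p = 1.04e-05) and 1.19 for control over 0 h (SE 0.0646, limma adjusted p = 1.68e-05).

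Uvrag takes the place of ATG14 in the complex that acts on endosomes and on later autophagosomes. It had 17.2, 18.15 and 18.92 TPM in the DTPA libraries, 24.22, 24.88 and 25.71 TPM in the control libraries and 10.99 TPM at 0 h. The DTPA libraries fell between the controls and 0 h, with no overlap. The log2 fold change was -0.44 for DTPA over control (SE 0.057, limma adjusted p = 3.75e-04) and 1.11 for control over 0 h (SE 0.0739, limma adjusted p = 3.73e-05). Atg14 and Uvrag were both called higher in the controls than at 0 h, and both calls were lost with a pseudocount of 5 TPM, at 0.94 and 0.9. The ratio of the Atg14 level to the Uvrag level, which does not depend on a library's total, was 2.39, 2.21 and 2.1 in the DTPA libraries, 0.955, 0.953 and 0.845 in the control libraries and 0.862 at 0 h. The ratio at 0 h lay within the control range. All DTPA ratios were above that range, which follows from Atg14 being higher and Uvrag lower in every DTPA library.

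Ambra1, a Beclin 1-binding regulator of the complex, had 37.17, 40.13 and 37.56 TPM in the DTPA libraries, 44.42, 43.04 and 44.51 TPM in the control libraries and 31.43 TPM at 0 h. The groups did not overlap, with the DTPA libraries between the controls and 0 h, and the DTPA difference was -0.2 (SE 0.048, limma adjusted p = 0.00936). That call was lost under median-of-ratios scaling and quantile normalization, at -0.1 and -0.05. The shared core of both complexes, Becn1, the catalytic subunit Pik3c3 and its regulatory subunit Pik3r4, was called in neither comparison, with log2 fold changes between -0.05 and 0.12 under DTPA and between -0.31 and 0.62 over 0 h. Becn1 had 59.56 to 63.56 TPM in the DTPA libraries, 60.05 to 63.12 TPM in the control libraries and 39.47 TPM at 0 h, and the opposite-strand gene Cntd1, with which it shares 43.9% of its exon bases, was at most 0.09 TPM in the DTPA libraries, 0.19 TPM in the control libraries and 0.23 TPM at 0 h.

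Among genes that feed and mark the growing membrane, Atg2a had the largest log2 rise under DTPA of the 35 tested genes. Its product moves lipid into the membrane. It had 142.93, 174.02 and 172.14 TPM in the DTPA libraries, 81.58, 83.53 and 78.03 TPM in the control libraries and 22.06 TPM at 0 h. The 3 groups were well apart, DTPA highest and 0 h lowest. The log2 fold change was 0.99 for DTPA over control (SE 0.078, limma adjusted p = 2.77e-05) and 1.83 for control over 0 h (SE 0.117, limma adjusted p = 3.20e-05). Atg2b, which encodes the other lipid-transfer protein of this kind, overlapped, with 58.3 to 63.14 TPM under DTPA and 57.15 to 63.11 TPM in the controls, and had 35.57 TPM at 0 h. Atg2a made up 72.6% ± 1.4 of the summed level of both genes in the DTPA libraries, 57.4% ± 2.05 in the control libraries (SD, n = 3 each) and 38.3% at 0 h, so the more abundant gene of the pair at 0 h was Atg2b.

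The WIPI proteins bind the lipid that the class III PI3-kinase makes, and WIPI2 recruits ATG16L1 there. Wipi2 had 48.89, 55.28 and 53.18 TPM in the DTPA libraries, 41.4, 40.33 and 41.21 TPM in the control libraries and 27.0 TPM at 0 h. It was highest with DTPA and did not overlap, at 0.35 for DTPA over control (SE 0.0546, limma adjusted p = 0.00108), and its rise over 0 h of 0.58 was below the minimum fold. Wipi1 had 73.65, 79.38 and 80.58 TPM in the DTPA libraries, 75.65, 68.93 and 77.07 TPM in the control libraries and 8.52 TPM at 0 h. DTPA and control overlapped, and both stood far above 0 h, with 2.97 for control over 0 h (SE 0.082, limma adjusted p = 1.53e-06). Wipi1 made up 59.8% of the summed WIPI level in the DTPA libraries, 64.3% in the control libraries and 24.0% at 0 h.

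Atg9a encodes the membrane protein of the vesicles that seed the autophagosome. It had 89.96, 103.39 and 100.76 TPM in the DTPA libraries, 102.61, 100.63 and 102.75 TPM in the control libraries and 16.56 TPM at 0 h. DTPA and control overlapped, and the rise over 0 h was 2.55 (SE 0.0795, limma adjusted p = 2.31e-06). Gm29253, which shares 1832 exon bases with Atg9a on the same strand, was at most 0.2 TPM in the DTPA libraries, 0.46 TPM in the control libraries and 0.1 TPM at 0 h.

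**Figure D3:**
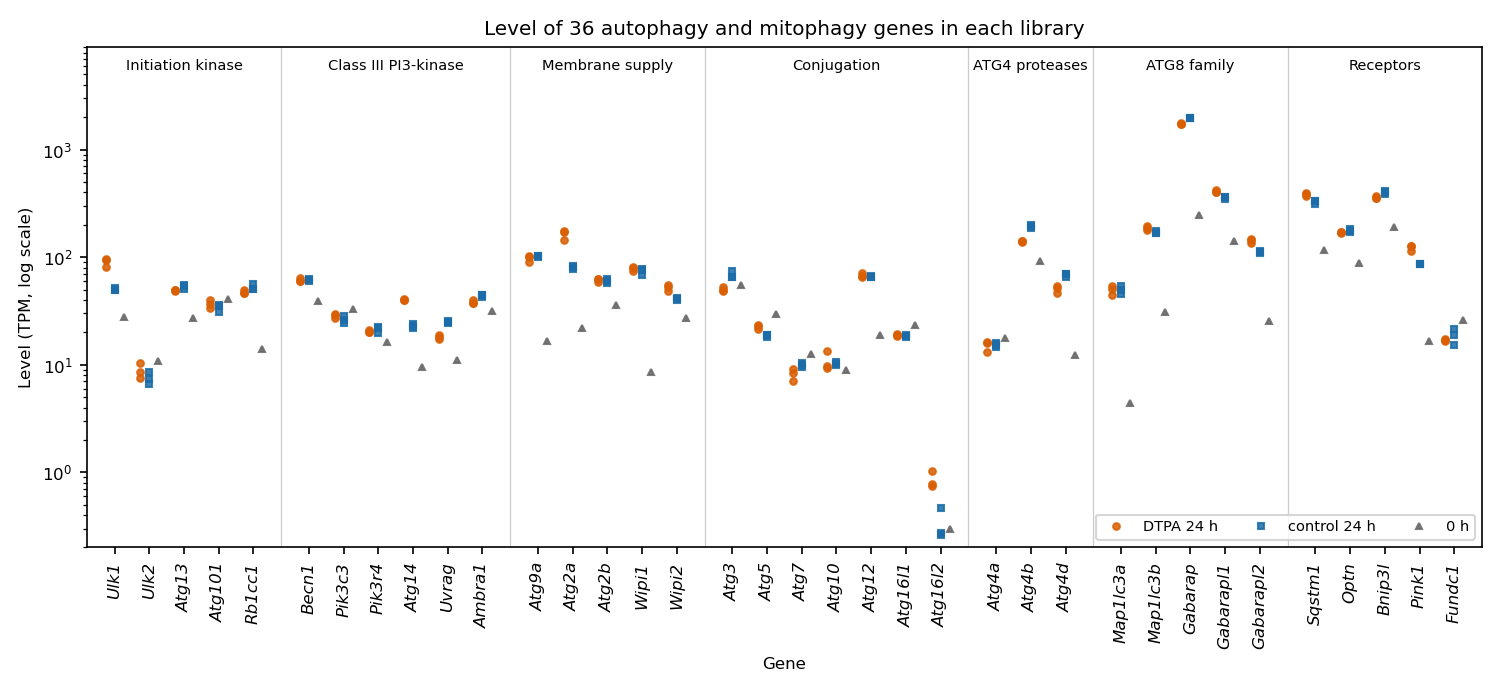
TPM on a log scale in each library for the 36 genes with a value above 0 in any library, grouped by role; circles are the 3 DTPA libraries at 24 h, squares the 3 control libraries at 24 h and triangles the 0 h library. Gabarap is the most abundant in every library, and the triangles lie well below the other symbols for Wipi1, Atg9a, Map1lc3a and Gabarap.

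Of the 6 conjugation genes that passed the filter, Atg5 rose and Atg3 fell with DTPA, and Atg12 was the gene that passed the fold and the test against 0 h. Atg3 encodes the E2-like enzyme that passes ATG8 proteins to lipid. It had 53.08, 48.93 and 49.74 TPM in the DTPA libraries, 64.84, 65.61 and 73.71 TPM in the control libraries and 55.04 TPM at 0 h. The DTPA libraries were below every control library and also below 0 h, with -0.42 for DTPA over control (SE 0.0621, limma adjusted p = 7.90e-04). Atg5, whose product is joined to ATG12, had 23.18, 21.35 and 22.72 TPM in the DTPA libraries, 17.98, 19.1 and 19.06 TPM in the control libraries and 29.93 TPM at 0 h. The DTPA libraries lay between the controls and 0 h, at 0.25 (SE 0.057, limma adjusted p = 0.00699). Control over 0 h was -0.65 for Atg5, the lowest value among the 35 genes, and it did not reach the minimum fold.

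Atg12, the ubiquitin-like partner of ATG5, had 71.65, 65.85 and 66.75 TPM in the DTPA libraries, 65.8, 66.68 and 64.78 TPM in the control libraries and 18.89 TPM at 0 h. Both 24 h groups were far above 0 h and overlapped each other, and control over 0 h was 1.75 (SE 0.0575, limma adjusted p = 2.70e-06). Atg7, the E1-like enzyme that activates both conjugation systems, was lower in every DTPA library, at 7.12 to 9.17 TPM, than in any control library, at 9.6 to 10.46 TPM, with 12.7 TPM at 0 h, and its -0.26 missed the threshold (limma adjusted p = 0.0507). Atg10, the E2-like enzyme for ATG12, and Atg16l1, which places the conjugate on the membrane, differed by 0.07 and 0.05 between DTPA and control and were not called in either comparison. Atg16l2, a relative of Atg16l1, did not pass the filter, having 0.78, 0.75 and 1.02 TPM in the DTPA libraries, 0.27, 0.47 and 0.26 TPM in the control libraries and 0.3 TPM at 0 h. Its DTPA libraries were all higher, and without the filter the log2 fold change was 0.47 (limma adjusted p = 0.0147). These Atg16l2 values rested on few reads, about 43 to 62 in the DTPA libraries, 13 to 23 in the control libraries and 15 at 0 h.

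The ATG4 proteases, which prime ATG8 proteins and remove them from lipid, were lower with DTPA in both abundant genes. Atg4b had 138.46, 140.72 and 140.01 TPM in the DTPA libraries, 193.55, 185.0 and 199.21 TPM in the control libraries and 93.07 TPM at 0 h. The DTPA libraries stood between the controls and 0 h, with -0.46 for DTPA over control (SE 0.0398, limma adjusted p = 4.66e-05) and 1.04 for control over 0 h (SE 0.0472, limma adjusted p = 8.21e-06). Atg4d had 46.77, 51.91 and 54.21 TPM in the DTPA libraries, 69.98, 69.42 and 65.51 TPM in the control libraries and 12.39 TPM at 0 h. It showed the same order without overlap, at -0.42 for DTPA over control (SE 0.0625, limma adjusted p = 8.34e-04) and 2.37 for control over 0 h (SE 0.0887, limma adjusted p = 4.11e-06). Kri1, on the opposite strand and sharing 1405 exon bases with Atg4d, was 103 to 116 TPM in the DTPA libraries, 101 to 109 TPM in the control libraries and 54.14 TPM at 0 h.

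Atg4a had 13.08 to 16.22 TPM in the DTPA libraries, 14.53 to 15.81 TPM in the control libraries and 17.74 TPM at 0 h, and was called in neither comparison. Atg4c was listed at 0 in all 7 libraries. The summed level of the ATG4 genes was 206 ± 4.57 TPM in the DTPA libraries and 276 ± 5.68 TPM in the control libraries (SD, n = 3 each), and 123.2 TPM at 0 h. It was 0.745 of the control level with DTPA, and 0.798 with median-of-ratios scaling and 0.833 with quantile normalization, so this sum was lower under each.

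All 5 members of the ATG8 family, the proteins that coat the autophagosome and bind receptors, were called higher in the controls than at 0 h, and the family then divided under DTPA. Gabarap, the most abundant of the 37 genes in every library, had 1735.55, 1782.82 and 1736.33 TPM in the DTPA libraries, 1968.02, 1965.65 and 1980.76 TPM in the control libraries and 248.68 TPM at 0 h. Every DTPA library was below every control library, and 0 h was far lower. The log2 fold change was -0.17 for DTPA over control (SE 0.0344, limma adjusted p = 0.00375) and 2.98 for control over 0 h (SE 0.0399, limma adjusted p = 2.12e-07). The DTPA call was lost with median-of-ratios scaling, at -0.07, and the value was -0.47 with quantile normalization.

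Gabarapl1, a close relative of Gabarap, had 404.25, 400.75 and 418.19 TPM in the DTPA libraries, 362.95, 362.49 and 349.35 TPM in the control libraries and 142.82 TPM at 0 h. It was highest with DTPA, without overlap, at 0.19 (SE 0.0364, limma adjusted p = 0.00324), and 1.32 for control over 0 h (SE 0.042, limma adjusted p = 2.44e-06). Gabarapl2, the product of which is also called GATE-16, had 148.65, 135.4 and 145.42 TPM in the DTPA libraries, 109.32, 112.02 and 113.53 TPM in the control libraries and 25.76 TPM at 0 h. It too was highest with DTPA, at 0.36 (SE 0.0459, limma adjusted p = 3.83e-04), and 2.07 for control over 0 h (SE 0.0594, limma adjusted p = 1.74e-06).

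Map1lc3b encodes LC3B, the ATG8 protein most used as a marker of autophagosomes. It had 179.9, 193.52 and 186.32 TPM in the DTPA libraries, 167.99, 175.35 and 168.33 TPM in the control libraries and 30.64 TPM at 0 h. The DTPA libraries were just above the controls, at 0.13 (SE 0.0417, limma adjusted p = 0.0309), and control over 0 h was 2.44 (SE 0.0517, limma adjusted p = 6.92e-07). The DTPA call was lost without DTPA replicate 2 or 3 or control replicate 1 or 3, and without the variance trend, with adjusted p between 0.0705 and 0.107. Its values are uncertain, because the processed pseudogene Gm6055 matches it at 99.7% identity over 378 bases and could take or give reads. Gm6055 itself had 356.39, 311.54 and 373.01 TPM in the DTPA libraries, 375.6, 350.16 and 301.85 TPM in the control libraries and 60.88 TPM at 0 h. The Gm6055 groups overlapped at 24 h, at 0.02 for DTPA over control (limma adjusted p = 0.87), and stood above 0 h at 2.47.

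Map1lc3a, which encodes LC3A, had 44.58, 53.71 and 50.09 TPM in the DTPA libraries, 53.49, 49.21 and 45.34 TPM in the control libraries and 4.44 TPM at 0 h. DTPA and control overlapped, and the rise of 3.21 in the controls over 0 h (SE 0.127, limma adjusted p = 4.98e-06) was the largest of the 35 genes. The 0 h value rested on about 31 reads.

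The summed level of the ATG8 family was 2538 ± 26.7 TPM in the DTPA libraries and 2661 ± 3.73 TPM in the control libraries (SD, n = 3 each), and 452.34 TPM at 0 h. DTPA was 0.954 of control on TPM, 0.846 with quantile normalization and 1.02 with median-of-ratios scaling, where the groups overlapped, so the sum has no direction under DTPA that holds for every scaling. Its make-up shifted as well. Gabarap was 69.0% ± 0.511 of the family in the DTPA libraries, 74.1% ± 0.407 in the control libraries (SD, n = 3 each) and 55.0% at 0 h. Gabarapl1 was 16.1%, 13.5% and 31.6% in the same groups, Map1lc3b 7.35%, 6.41% and 6.77%, Gabarapl2 5.64%, 4.19% and 5.69%, and Map1lc3a 1.95%, 1.85% and 0.982%. In these shares Gm6055 was not counted.

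**Figure D4:**
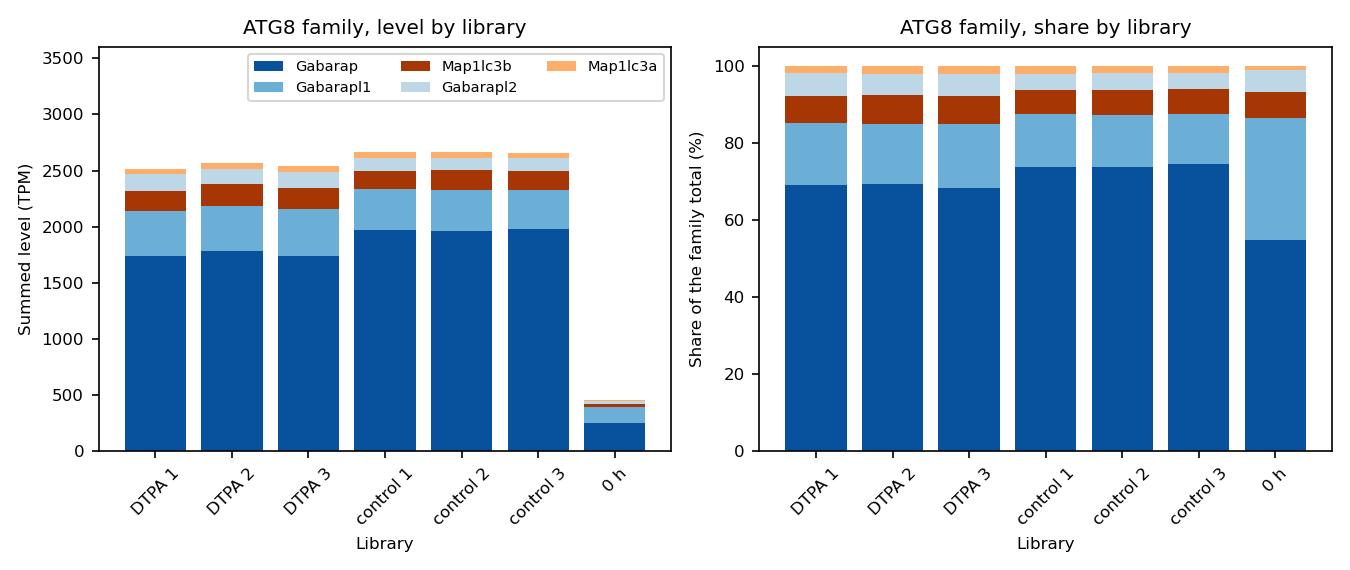
Summed level in TPM (left) and share of the family total in percent (right) of the 5 ATG8 genes in each library, stacked by gene, with the 3 DTPA libraries first, then the 3 control libraries and the 0 h library. The totals run from 2512.93 to 2566.2 TPM in the DTPA libraries and from 2657.31 to 2664.72 TPM in the control libraries, against 452.34 TPM at 0 h, where Gabarapl1 takes 31.6% of the family.

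Of the receptors, the general receptor gene Sqstm1 rose and the mitochondrial receptor gene Bnip3l fell with DTPA, both by small amounts. Sqstm1 encodes p62, which ties ubiquitinated cargo to ATG8 proteins. It had 372.99, 391.15 and 385.26 TPM in the DTPA libraries, 333.98, 334.01 and 312.2 TPM in the control libraries and 116.87 TPM at 0 h. All DTPA libraries were above the controls, at 0.23 (SE 0.0418, limma adjusted p = 0.00226), and control over 0 h was 1.47 (SE 0.0533, limma adjusted p = 3.66e-06). Bnip3l encodes NIX, the outer-membrane receptor for mitochondrial removal. It had 371.7, 355.31 and 353.37 TPM in the DTPA libraries, 388.41, 401.9 and 414.02 TPM in the control libraries and 191.53 TPM at 0 h. The DTPA libraries lay between the controls and 0 h, at -0.16 (SE 0.0404, limma adjusted p = 0.012), and control over 0 h was 1.06 (SE 0.0505, limma adjusted p = 9.82e-06).

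The DTPA call of Bnip3l was lost with median-of-ratios scaling and quantile normalization, at -0.06 and -0.04. Its values are also uncertain for reads shared with Bnip3l-ps, which matches it at 99.4% identity over 1131 bases. Bnip3l-ps itself had 63.5, 56.81 and 61.97 TPM in the DTPA libraries, 70.78, 66.79 and 74.2 TPM in the control libraries and 32.44 TPM at 0 h, the same order as Bnip3l, at -0.21 for DTPA over control (limma adjusted p = 0.0169). The ratio of the Bnip3l level to the Sqstm1 level was 0.997, 0.908 and 0.917 in the DTPA libraries, 1.16, 1.2 and 1.33 in the control libraries and 1.64 at 0 h. Since Bnip3l was lower and Sqstm1 higher in every DTPA library, DTPA and control ratios could not overlap, and the ratio is no separate result.

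Pink1 encodes the kinase that marks damaged mitochondria with phosphorylated ubiquitin. It had 113.52, 127.61 and 127.37 TPM in the DTPA libraries, 85.55, 86.14 and 86.2 TPM in the control libraries and 16.52 TPM at 0 h. The 3 groups were well apart, at 0.51 for DTPA over control (SE 0.053, limma adjusted p = 1.24e-04) and 2.31 for control over 0 h (SE 0.0726, limma adjusted p = 2.37e-06). Optn, a receptor that binds ubiquitin on mitochondria, had 166.83 to 172.16 TPM in the DTPA libraries, 173.06 to 182.0 TPM in the control libraries and 88.78 TPM at 0 h. It was called in neither comparison, and its 0.99 over 0 h lay just under the minimum fold. Fundc1, another mitochondrial receptor, had 16.47 to 17.26 TPM in the DTPA libraries, 15.23 to 21.52 TPM in the control libraries and 25.82 TPM at 0 h, and was not called.

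In level, the order of the most abundant genes differed between groups. Gabarap was first in each. In the DTPA libraries Gabarapl1 at 400.75 to 418.19 TPM came next, then Sqstm1 at 372.99 to 391.15 TPM and Bnip3l at 353.37 to 371.7 TPM, and these ranges did not overlap. In the control libraries the order was Bnip3l at 388.41 to 414.02 TPM, Gabarapl1 at 349.35 to 362.95 TPM and Sqstm1 at 312.2 to 334.01 TPM, again without overlap. At 0 h it was Bnip3l, Gabarapl1 and Sqstm1 at 191.53, 142.82 and 116.87 TPM, with no replicate. Below them, Optn and Map1lc3b overlapped in the control libraries. Apart from Atg4c and Atg16l2, the least abundant were Atg7, Ulk2 and Atg10, at means of 8.21, 8.82 and 10.9 TPM in the DTPA libraries and 9.98, 7.52 and 10.2 TPM in the control libraries.

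Around these genes, 60 others of the pathway were chosen by role, and 55 passed the filter in each comparison. With DTPA, 15 rose and 24 fell, 70.9% in all beside 58.1% of all genes. By direction, 27.3% rose and 43.6% fell, beside 21.7% and 36.4% of all genes, the shares against which the counts by role below are to be read. The median log2 fold change was -0.03, beside -0.09 over all genes. With median-of-ratios scaling the counts were 21 and 16, and with quantile normalization 24 and 16. Of the 9 genes for fusion with the lysosome, 0 rose by limma (also 0 at an unadjusted p under 0.05) and 5 fell, namely Stx17, Snap29, Vamp8, Ykt6 and Rab7, between -0.22 and -0.5. Rab7 encodes a small GTPase and the others SNARE proteins of the fusion step. With median-of-ratios scaling 2 of the 9 rose and 4 fell, and with quantile normalization 3 rose and 4 fell. Of 14 tested upstream kinases and regulators, 2 rose, Foxo3 at 0.37 and Akt1s1 at 0.34, and 9 fell. The falls were Rheb at -0.43, Mtor at -0.42, Prkag1 at -0.39, Stk11 at -0.27 and Tsc1 at -0.24. Smaller ones were Mlst8 at -0.21, Tsc2 at -0.2, Rptor at -0.18 and Sesn2 at -0.18. Under median-of-ratios scaling and quantile normalization 3 of these 14 rose and 4 fell. Of 9 tested nucleation and membrane genes 5 rose and 3 fell, of 16 other receptors 7 rose and 3 fell, and of 7 genes of mitochondrial ubiquitin and fusion 1 rose and 4 fell. Against 0 h, 21 of the 55 were higher in the controls and 2 lower, Phb2 at -2.64 and Nipsnap1 at -1.66. These are 38.2% and 3.64%, beside 15.1% and 24.3% of all genes, and the median was 0.65, beside -0.22 over all genes.

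The largest changes among these 60 under DTPA were in Tollip, Tmem41b, Wdr45 and Nipsnap2. Tollip, an adaptor that binds ubiquitin and ATG8 proteins, had 195.62, 212.08 and 215.13 TPM in the DTPA libraries, 349.58, 338.8 and 351.56 TPM in the control libraries and 50.57 TPM at 0 h. It was lowest at 0 h and highest in the controls, with -0.74 for DTPA over control (limma adjusted p = 8.62e-06) and 2.75 for control over 0 h. Tmem41b, a lipid scramblase of the forming membrane, had 20.94, 20.41 and 21.1 TPM in the DTPA libraries, 32.95, 32.85 and 35.25 TPM in the control libraries and 16.22 TPM at 0 h, and fell by 0.67 with DTPA (limma adjusted p = 2.36e-05). Wdr45, a relative of the WIPI genes, had 20.46, 20.01 and 22.12 TPM in the DTPA libraries, 13.17, 13.83 and 12.71 TPM in the control libraries and 5.42 TPM at 0 h, and was higher with DTPA by 0.62 (limma adjusted p = 1.15e-04). Nipsnap2, a mitochondrial protein that can recruit receptors, had 63.49 to 71.62 TPM in the DTPA libraries, 43.83 to 49.23 TPM in the control libraries and 77.65 TPM at 0 h, at 0.53 for DTPA over control (limma adjusted p = 3.08e-04).

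Between control and 0 h the largest changes were in Calcoco1, Ncoa4, Plekhm1 and, as above, Tollip. Calcoco1, a receptor for pieces of endoplasmic reticulum, had 152.26, 167.87 and 165.91 TPM in the DTPA libraries, 116.06, 109.82 and 113.36 TPM in the control libraries and 3.28 TPM at 0 h. It was higher in the controls than at 0 h by 4.74 (SE 0.0665, limma adjusted p = 2.25e-07) and higher again with DTPA by 0.51. Ncoa4, the receptor that delivers ferritin for breakdown, had 290.22, 286.74 and 285.17 TPM in the DTPA libraries, 218.06, 212.35 and 236.55 TPM in the control libraries and 21.63 TPM at 0 h, at 0.37 for DTPA over control (limma adjusted p = 3.40e-04) and 3.3 for control over 0 h (limma adjusted p = 5.12e-07). Plekhm1, an adaptor between ATG8 proteins and the lysosome, had 174.62 to 206.97 TPM in the DTPA libraries, 199.69 to 203.3 TPM in the control libraries and 23.5 TPM at 0 h. Its 24 h groups overlapped, and control over 0 h was 3.05 (limma adjusted p = 2.16e-06).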

How the data were processed

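Polyadenylated RNA had been sequenced from 7 libraries, prepared with a stranded mRNA kit per the labels' protocols. The submitters' processing notes name Trimmomatic 0.33, FastQC, HISAT2 2.1.0, featureCounts, edgeR and the mouse build mm10. The annotation release, gene lengths, strand setting and treatment of reads with several matches are not given in the sources used here, so overlapping and near-identical genes can share reads. The deposited values are TPM, 1 column per library, scaled to the same total, so abundant genes that rise lower the others. Each table held 55487 rows, and 114 symbols on 234 rows were summed to leave 55367 symbols.

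Reads were estimated from the low values and GENCODE M21 exon lengths, and 98.9% to 99.3% of the low values tested were within 0.1 of a whole read. For a 2 kb gene a read corresponded to 0.0696 to 0.0857 TPM. Replicates were not copies of each other, since their estimated reads differed by 3.12 to 9.93 times sampling noise in chi-square per gene.

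log2(TPM + 1) was tested with limma 3.58.1 in R 4.3.3, with a variance trend, two-sided, and Benjamini-Hochberg adjustment over all genes tested. A fold change on this scale understates the change of low genes. DTPA against control used the 6 libraries at 24 h, genes at or above 1 TPM in 3 or more of them, and a call at an adjusted p under 0.05. Control against 0 h used all 7 libraries in 3 groups, genes whose mean reached 1 TPM in the controls or the 0 h library, and also required a log2 fold change of at least 1. For the lone 0 h library the spread of the 24 h groups was assumed. The labels call the replicates biological without saying whether they were separate cultures, so p-values measure the spread between these samples, which may be technical. The scripts were tested on simulated data.

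The members, roles and pathway list were chosen with earlier results of these data known. A gene is given with its value in every library if it was called under DTPA with groups that do not overlap, or called against 0 h. Of the other pathway genes, the 4 called genes with the largest log2 fold change in each comparison and a mean of at least 5 TPM are given in full, and the fusion and upstream genes named beside their counts, with Phb2 and Nipsnap1, were picked after their values were seen. Coordinates are on GRCm38, and promoter windows follow RefSeq start sites on GRCm38.p6. Near copies were transcripts with at least 98% identity over at least 300 bases. Alternatives were the pseudocount, the filter, 3 scalings, no variance trend, a replicate block, other library sets, no minimum fold, and leaving out each replicate.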

Additional observations from a re-analysis of the deposited data

How the results depend on the processing

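Of the 18 calls under DTPA, 13 held in all 16 alternatives (9 higher and 4 lower), as did 15 of the 17 calls against 0 h. With quantile normalization 18 members were higher and 5 lower and 24 pathway genes were higher, and with median-of-ratios scaling 4 members were lower. Quantile normalization also turned Rb1cc1 to 0.003 (limma adjusted p = 0.967), Becn1 to 0.13 (0.0239) and Optn to 0.11 (0.0272). The cause was not tested. Without the minimum fold against 0 h, 26 members were higher and 4 lower, and 34 pathway genes were higher and 11 lower.

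Leaving out a replicate gave 9 to 10 members higher and 7 to 8 lower under DTPA, and 12 to 15 pathway genes higher and 19 to 22 lower. Against 0 h it gave 17 to 18 members higher and 0 lower, and 20 to 21 pathway genes higher and 2 lower. The 0 h library has no replicate and could not be left out.

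Replicate numbers did not pair the libraries. The deviations of same-numbered DTPA and control libraries had correlations of -0.01, 0.02 and -0.01, and not every library correlated best with its own number. With the replicate block, 10 members were higher and 7 lower, and 13 pathway genes were higher and 22 lower. The lowest tested value rested on few reads, about 31 for Map1lc3a at 0 h, so its fold against 0 h is imprecise.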
